A study of Mus musculus with 40 samples.

Results

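The genes described here encode 10 integrins and cell adhesion molecules, namely Icam1, Vcam1, Itgam, Itgax, Itgal, Itgb2, Itga4, Itga5, Itgav and Sdc4. They are 10 of the 22865 genes with a symbol in the expression table, were chosen by symbol, and each is represented by the transcript with the highest RNA-Seq mean. They were followed in mouse macrophages, washed from the peritoneum 4 days after an injection of thioglycollate, that had adhered to culture dishes overnight. Treated cells received 100 ng/ml of Kdo2-lipid A (KLA), an agonist of Toll-like receptor 4, for 1 hr, or in RNA-Seq also for 4 hr, and the others got fresh medium with no treatment. Cells came from the inbred strains C57BL6/J and BALBc/J, which carry no named engineered allele in the labels. RNA-Seq of polyadenylated RNA had 6 libraries, GRO-Seq of RNA still attached to the polymerase had 4, and ChIP-Seq gave 20 peak lists. There was 1 library per strain, treatment and assay, except the NF-kB subunit p65 after KLA, with 2 per strain.

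Integrins are pairs of an alpha and a beta chain that bind matrix proteins or receptors on other cells. The beta 2 chain (Itgb2) pairs with the alpha chains L, M and X (Itgal, Itgam, Itgax) on leukocytes, and these pairs bind ICAM1 or complement fragments. Alpha 4 (Itga4) binds VCAM1 and fibronectin, alpha 5 (Itga5) binds fibronectin, and alpha V (Itgav) binds vitronectin and other ligands. ICAM1 and VCAM1 are immunoglobulin-like receptors for leukocyte integrins, and syndecan 4 (Sdc4) is a heparan sulphate proteoglycan that works with integrins at focal adhesions. Icam1, Vcam1 and Sdc4 are known targets of NF-kB in other settings.

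On build mm9 the transcripts used were NM_010493 for Icam1 (chr9:20820403-20833240, plus strand), NM_011693 for Vcam1 (chr3:115812937-115832606, minus strand) and NM_011521 for Sdc4 (chr2:164249746-164268688, minus strand). On chromosome 7 lay Itgal (NM_008400, chr7:134439861-134477412), Itgam (NM_001082960, chr7:135206153-135262005) and Itgax (NM_021334, chr7:135273081-135294171), all on the plus strand, so that the windows of Itgam and Itgax share peaks. Itga4 (NM_010576, chr2:79095582-79173271) and Itgav (NM_008402, chr2:83564553-83647073) lay on the plus strand of chromosome 2. Itgb2 was NM_008404 (chr10:76993092-77028419, plus strand) and Itga5 was NM_010577 (chr15:103174717-103197179, minus strand).

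RefSeq promoter sequences, from 250 bases before the start site to 50 after it on build GRCm38.p6, were at hand for 7 of the 10 genes (Icam1, Itgam, Itgax, Itga4, Itga5, Itgav and Sdc4). They were searched on both strands for the NF-kB consensus by name, for GGAAATTCC, for the PU.1 core GAGGAAGT and for the C/EBP core TTGCNNAA. A GGAAATTCC that follows a G is also a match to the NF-kB consensus. The 3 windows with a match are printed, with the match in capitals. Peaks of p65 or PU.1 lay at these starts, and also at starts without a match, Itgam and Itgax among them.
Icam1, chr9:21015690-21015989, plus strand: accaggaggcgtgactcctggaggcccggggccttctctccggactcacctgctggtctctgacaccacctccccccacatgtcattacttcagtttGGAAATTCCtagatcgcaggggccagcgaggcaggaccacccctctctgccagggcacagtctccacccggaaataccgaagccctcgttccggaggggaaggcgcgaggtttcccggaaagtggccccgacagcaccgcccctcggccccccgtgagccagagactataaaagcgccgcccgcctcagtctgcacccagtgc
Sdc4, chr2:164443139-164443438, minus strand: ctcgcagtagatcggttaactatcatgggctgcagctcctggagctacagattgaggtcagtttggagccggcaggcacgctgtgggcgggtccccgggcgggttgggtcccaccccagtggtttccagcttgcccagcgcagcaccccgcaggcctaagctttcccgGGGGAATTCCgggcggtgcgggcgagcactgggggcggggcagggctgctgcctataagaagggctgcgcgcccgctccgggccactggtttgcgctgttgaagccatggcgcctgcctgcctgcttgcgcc
Itgav, chr2:83724147-83724446, plus strand: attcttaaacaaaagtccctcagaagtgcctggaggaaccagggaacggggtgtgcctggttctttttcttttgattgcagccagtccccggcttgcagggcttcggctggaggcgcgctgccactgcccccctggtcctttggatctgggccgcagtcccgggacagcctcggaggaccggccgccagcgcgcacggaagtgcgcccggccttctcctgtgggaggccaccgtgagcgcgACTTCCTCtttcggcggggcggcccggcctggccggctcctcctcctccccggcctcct
Counting the last base before the start as -1, GGAAATTCC lay at -153 to -145 of Icam1 and is found in 0.317% of the 32851 promoters of this length. The NF-kB consensus lay at -82 to -73 of Sdc4 and is found in 4.51% of them. The PU.1 core lay at -9 to -2 of Itgav on the opposite strand and is found in 3.20% of them. The C/EBP core, found in 10.8% of promoters, was not among these letters in any of the 7 windows. The peaks are on build mm9 and are placed here only by their distance from the mm9 start. The length from start to gene end differed between the builds by 37 bp for Icam1, 1 bp for Sdc4 and 0 bp for Itgav.

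RNA-Seq libraries held 17.0 to 20.3 M tags and GRO-Seq libraries 39.4 to 48.3 M, of which 3.07 to 4.34 M were exonic and counted for the transcripts used, so that intronic nascent RNA is not part of the GRO-Seq levels. Levels below count tags in exons, scaled to a library of 10 M tags, where M is mega. They are not corrected for transcript length, except where a level per kb is given. All 10 macrophage markers tested were present in RNA-Seq, with summed levels of 77440 to 92298 in C57BL6/J and 86319 to 108051.5 in BALBc/J. The 15 mesothelial and fibroblast markers summed to 2086 to 3097 in C57BL6/J and 4075 to 4801 in BALBc/J. Of the 12 tested in RNA-Seq, 4 were lower in C57BL6/J, or 3 with libraries centred on their median, against 2.52% of all genes as fitted. In GRO-Seq 2 of 2 were lower, or 0 when centred, against 0.494% as fitted. Of 9 endothelial markers, Tek, Emcn, Cldn5, Robo4 and Egfl7 had at most 3 tags in each RNA-Seq library, as had Cd3d, Cd3e and Cd3g of the T cell markers. The 9 endothelial markers together summed to 219 to 557 in C57BL6/J and 289 to 564 in BALBc/J. Calls needed an adjusted p under 0.05 (limma, all genes of the assay) together with a log2 change of 1 or more, fitted on tags per 10 M plus 10. The median gene changed by -0.21 at 1 hr and -0.47 at 4 hr in RNA-Seq and by -0.34 in GRO-Seq, so that, relative to the median gene, each change is higher by about that amount. The shift was -0.27 between 1 and 4 hr, and -0.08 in RNA-Seq and -0.22 in GRO-Seq for C57BL6/J against BALBc/J.

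Without treatment, the beta 2 chain and its partners Itgax and Itgam were the most abundant of the 10 RNAs per kb of transcript, and after 4 hr of KLA Sdc4 and Icam1 were. Untreated Itgb2 had 6891 tags per kb in C57BL6/J and 4318 in BALBc/J, followed in both strains by Itgax (1121 and 702.1) and Itgam (936 and 628). Vcam1, Itgal and Itga4 were the lowest 3 in both strains, between 15.8 and 33.5 tags per kb. Their order differed between the strains. After 4 hr of KLA, Sdc4 had 13336 and 9486 tags per kb in C57BL6/J and BALBc/J, and Icam1 had 9124 and 7356. Itgb2 came next at 4296 and 3405. Single libraries give these levels no error within a strain and treatment.

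The receptors for leukocyte integrins, Icam1 and Vcam1, rose in RNA at 1 hr and again between 1 and 4 hr, in both strains. In C57BL6/J, Icam1 RNA stood at 379 tags per 10 M without treatment, 1800.5 after 1 hr and 23165 after 4 hr. In BALBc/J it stood at 481, 2882.5 and 18676. BALBc/J was the higher without treatment and at 1 hr and C57BL6/J at 4 hr, and the 3 times did not overlap. Icam1 rose by 2.39 ± 0.24 at 1 hr (standard error, log2 scale, adjusted p = 0.000979) and by 5.57 ± 0.24 at 4 hr (adjusted p = 2.59e-06), which is 47.6-fold. In a bulk measurement, fewer cells of a type and less RNA per cell cannot be told apart.

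Vcam1, best known from activated endothelium, was low in these cells before treatment. Its RNA was at 53.6, 302 and 2444 tags per 10 M in C57BL6/J without treatment, at 1 hr and at 4 hr, and at 81.1, 444 and 2099 in BALBc/J. Both strains climbed at each step. The rise was 2.31 ± 0.23 at 1 hr (adjusted p = 0.00104) and 4.90 ± 0.23 at 4 hr (adjusted p = 3.78e-06). The summed mesothelial and fibroblast markers did not climb with it, at 3097, 2086 and 2126 in C57BL6/J and 4801, 4075 and 4566 in BALBc/J over the same times. One marker of that list, Pdgfrb, rose at 4 hr. The summed endothelial markers were at 557, 351 and 219 in C57BL6/J and 436, 289 and 564 in BALBc/J at these times. Of these endothelial markers 3 were tested in RNA, and Cdh5 rose between 1 and 4 hr (1.01 ± 0.24, adjusted p = 0.0119). At 4 hr against no treatment 0 of the 3 were called higher, and Vwf was called lower (adjusted p = 0.0113). With centred libraries 1 was higher and 0 lower. The selectin Sele, outside that list but known from activated endothelium, rose at 1 hr (2.66 ± 0.19, adjusted p = 0.000136) and at 4 hr (1.08 ± 0.19, adjusted p = 0.00205). The part of these cells in the Vcam1 values was not tested.

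Sdc4 rose in nascent RNA and in RNA at both times. Its increase in GRO-Seq was the highest of the 10 genes as fitted, but with a pseudocount of 2 Vcam1 was at 4.54 and Sdc4 at 4.50. Its RNA-Seq level was 998, 7667 and 32805 tags per 10 M in C57BL6/J without treatment, at 1 hr and at 4 hr, and 1204, 8470.4 and 23337 in BALBc/J. Its GRO-Seq level was 1005 in C57BL6/J and 837 in BALBc/J after KLA, against 43.4 and 34.2 without treatment. The treated and untreated libraries were far apart in both assays. Sdc4 rose by 4.25 ± 0.32 in GRO-Seq (adjusted p = 1.40e-37), the 7th highest change of 9110 genes, and by 2.87 ± 0.21 and 4.65 ± 0.21 in RNA at 1 and 4 hr (adjusted p = 0.000145 and 3.11e-06).

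**Figure D1:**
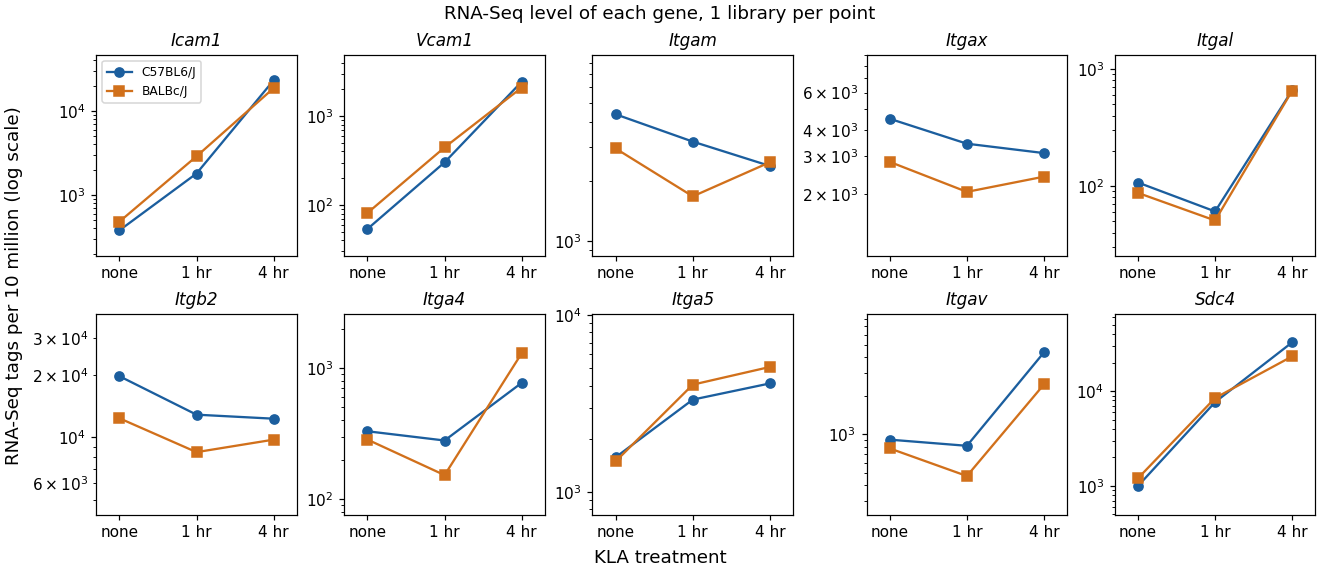
RNA-Seq tags per 10 M (log scale, a separate range for each gene) without treatment, after 1 hr and after 4 hr of KLA, with 1 library per point (circles C57BL6/J, squares BALBc/J). Icam1, Vcam1 and Sdc4 climb at both steps, Itgal, Itga4 and Itgav are at or below their untreated level at 1 hr and above it at 4 hr, and Itgam, Itgax and Itgb2 stay at or below it.

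Nascent RNA of Icam1 and Vcam1 also rose within the hour. Icam1 had 876 GRO-Seq tags per 10 M in C57BL6/J and 586 in BALBc/J after KLA, against 63.8 and 50.7 without treatment. Vcam1 had 126 and 95.2 after KLA, against 2.03 and 3.73 without treatment, the last pair resting on 8 and 18 tags. The treated libraries lay well above the untreated ones for both genes. The fitted increases were 3.44 ± 0.32 for Icam1 (adjusted p = 6.67e-25) and 3.22 ± 0.32 for Vcam1 (adjusted p = 5.66e-21), and the added 10 makes the value for Vcam1 smaller than the ratio of its tags.

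The fibronectin receptor chain Itga5 rose at 1 hr, and no further rise was called by 4 hr. Its RNA was at 1570.1, 3329 and 4112 tags per 10 M in C57BL6/J without treatment, at 1 hr and at 4 hr, and at 1489, 4046 and 5096 in BALBc/J. The rise was 1.26 ± 0.17 at 1 hr (adjusted p = 0.00599) and 1.58 ± 0.17 at 4 hr (adjusted p = 0.000206), and the step from 1 to 4 hr was 0.32 ± 0.17 (adjusted p = 0.168). Without the untreated BALBc/J library the change at 1 hr was 1.07 and was not called. GRO-Seq gave 812 in C57BL6/J and 892 in BALBc/J after KLA, against 296 and 265 without treatment, a rise of 1.57 ± 0.28 (adjusted p = 7.39e-07).

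Itgal and Itgav, the alpha chains L and V, rose in nascent RNA at 1 hr, while their polyadenylated RNA stood below the untreated level at that time and rose by 4 hr. Itgal had 147 GRO-Seq tags per 10 M in C57BL6/J and 139 in BALBc/J after KLA, against 20.3 and 14.1 without treatment. Its RNA-Seq level was 107, 60.7 and 659.8 in C57BL6/J without treatment, at 1 hr and at 4 hr, and 87.4, 50.8 and 654 in BALBc/J. The 1 hr libraries were the lowest of the 3 times in both strains. Itgal rose by 2.50 ± 0.36 in GRO-Seq (adjusted p = 1.89e-10), changed by -0.71 ± 0.19 in RNA at 1 hr without being called (adjusted p = 0.0813), and rose by 2.64 ± 0.19 at 4 hr (adjusted p = 2.43e-05). Itgal is expressed on lymphocytes too, and the summed T and NK cell markers were at 8.83, 10.6 and 190.0 in C57BL6/J and 22.4, 17.8 and 246 in BALBc/J at the 3 times. Within that list the kinase gene Lck rose at 4 hr. In each RNA-Seq library 6 of the 10 genes of the list in the table, Cd3d, Cd3e and Cd3g among them, had at most 3 tags. In GRO-Seq Cd3d was the highest of the list. The list summed there to 49.5 without treatment and 46.6 after KLA in C57BL6/J, and to 79.1 and 105 in BALBc/J. Summed B cell markers were at 1279, 906 and 553 in C57BL6/J RNA over the 3 times. In BALBc/J RNA they were at 1487, 957 and 768. The part of these cells in the Itgal values was not tested.

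Itgav showed the same order of events with a gap between the strains. Its RNA was at 909.9, 815 and 4381 tags per 10 M in C57BL6/J without treatment, at 1 hr and at 4 hr, and at 777, 473 and 2464 in BALBc/J. The change was -0.43 ± 0.20 at 1 hr (adjusted p = 0.244, not called) and a rise of 1.95 ± 0.20 at 4 hr (adjusted p = 0.000146). In GRO-Seq it had 1202 in C57BL6/J and 474 in BALBc/J after KLA, against 157 and 167 without treatment, a rise of 2.16 ± 0.30 (adjusted p = 2.44e-11). The responses were 2.86 in C57BL6/J and 1.45 in BALBc/J, and the standard error, pooled over genes, does not reflect this gap.

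Itga4, the VCAM1-binding alpha chain, was called in RNA at 4 hr, not at 1 hr. It was at 329, 279.9 and 772 tags per 10 M in C57BL6/J without treatment, at 1 hr and at 4 hr, and at 284.5, 152 and 1299 in BALBc/J. The strains crossed between 1 and 4 hr, C57BL6/J being the higher at 1 hr and the lower at 4 hr. The changes were -0.54 ± 0.33 at 1 hr (adjusted p = 0.360) and 1.68 ± 0.33 at 4 hr (adjusted p = 0.00365). The value at 1 hr rests on single libraries, being 0.01 without the BALBc/J library of that time and -1.10, and called, without the C57BL6/J one. GRO-Seq had 246 in C57BL6/J and 175.5 in BALBc/J after KLA, against 137 and 116 without treatment. That change of 0.68 ± 0.33 was not called (adjusted p = 0.106), but with libraries centred on their median it was 1.03 and was called.

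The chains Itgam, Itgax and Itgb2 did not share the increase. Itgam, the complement receptor chain, had 95.2 GRO-Seq tags per 10 M in C57BL6/J and 91.0 in BALBc/J after KLA, against 380.3 and 222 without treatment. It fell by 1.55 on the log2 scale (standard error 0.32, adjusted p = 2.48e-05), or by 1.19 with centred libraries. Its RNA was at 4380.5, 3184 and 2396 in C57BL6/J without treatment, at 1 hr and at 4 hr, and at 2938, 1680.5 and 2503 in BALBc/J. The treated RNA libraries were below the untreated one of their strain, but the changes of -0.63 ± 0.24 at 1 hr and -0.55 ± 0.24 at 4 hr were not called (adjusted p = 0.168 and 0.0781).

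Itgb2, the shared beta chain, was at 19722, 12858 and 12296 RNA-Seq tags per 10 M in C57BL6/J without treatment, at 1 hr and at 4 hr, and at 12357, 8480.1 and 9745 in BALBc/J. Its change of -0.51 ± 0.16 at 4 hr (adjusted p = 0.0247) was under the size needed for a call and lay close to the median gene, at -0.04 relative to it. In GRO-Seq Itgb2 had 267 in C57BL6/J and 333 in BALBc/J after KLA, against 552 and 357 without treatment, a change of -0.56 ± 0.30 (adjusted p = 0.150). Itgax RNA was at 4512, 3442.5 and 3108.5 in C57BL6/J and at 2826, 2041 and 2407 in BALBc/J at the 3 times, with changes of -0.43 ± 0.17 and -0.38 ± 0.17 that were not called (adjusted p = 0.188 and 0.0873).

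**Figure D2:**
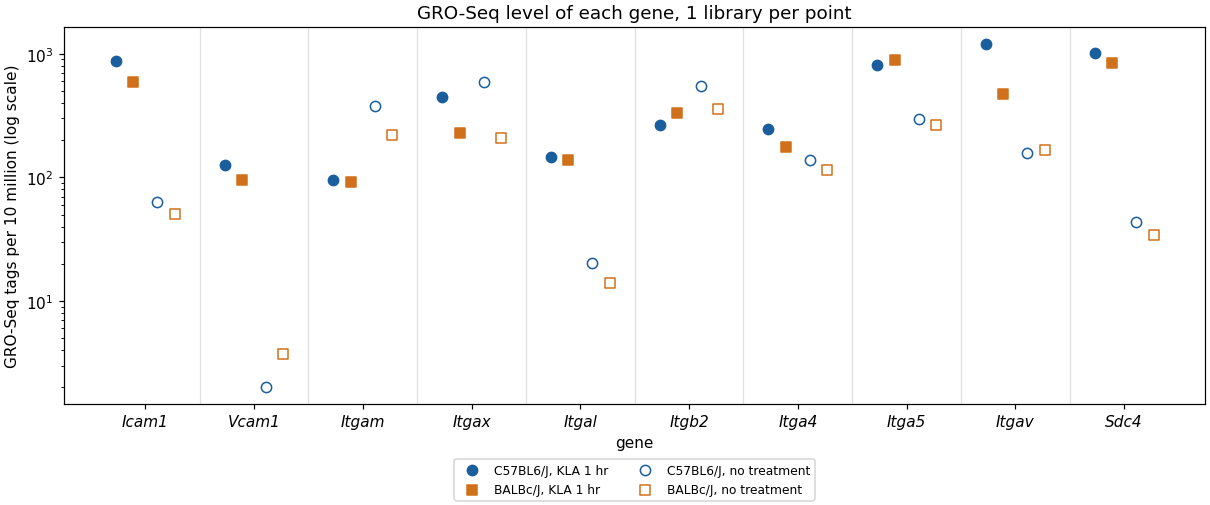
GRO-Seq tags per 10 M (log scale) in the 4 libraries, filled symbols after 1 hr of KLA and open symbols without treatment, circles C57BL6/J and squares BALBc/J. Filled symbols lie above open ones for Icam1, Vcam1, Itgal, Itga4, Itga5, Itgav and Sdc4, below them for Itgam and Itgb2, and overlap for Itgax.

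Counted over the 10 genes with limma, 4 were called higher and 0 lower in RNA at 1 hr, while 1.82% of the 10692 genes tested were called higher and 1.43% lower. At an unadjusted p under 0.05, another 4 of the 10 (Itgam, Itgax, Itgal and Itgb2) had negative changes at 1 hr, or 1 with centred libraries. Over all genes 2466 had such a p in either direction, or 1534 when centred. At 4 hr 7 were higher and 0 lower, against 8.10% of all genes higher and 21.3% lower. Another 2 of the 10 (Itgam and Itgb2) were negative at an unadjusted p under 0.05, or 0 with centred libraries. Over all genes 6643 had such a p in either direction, or 5022 when centred. Between 1 and 4 hr 6 were higher and 0 lower, against 8.67% higher and 13.5% lower. None of the 10 was negative at an unadjusted p under 0.05, which 5583 of all genes had in either direction. In GRO-Seq 6 were higher and 1 lower, against 4.31% higher and 15.5% lower of 9110 genes. Of the 6, Vcam1 passed the filter only through its treated libraries. Itgal, at 20.3 in C57BL6/J and 14.1 in BALBc/J without treatment, also needed its treated libraries to pass. The split over all genes depended on scaling. With libraries centred on their median it was 1248 higher and 1041 lower at 4 hr, against 866 and 2275 as fitted, and 618 and 645 in GRO-Seq, against 393 and 1410. It was 241 and 78 at 1 hr in RNA, against 195 and 153 as fitted, and 1171 and 962 between 1 and 4 hr, against 927 and 1446. The median change of the 10 genes was 1.82 at 4 hr and 1.86 in GRO-Seq, beside -0.47 and -0.34 for all genes, and at 1 hr in RNA it was -0.43 beside -0.21.

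**Figure D3:**
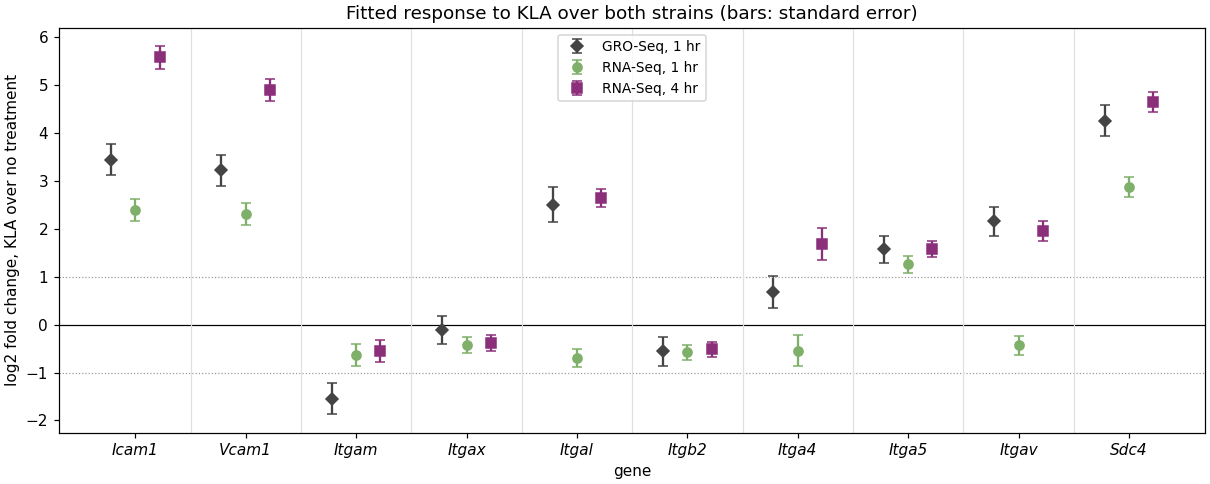
Fitted log2 change after KLA for each gene (points) with its standard error (bars), over both strains, for GRO-Seq at 1 hr and for RNA-Seq at 1 hr and 4 hr. Dotted lines mark a change of 1 in each direction, the size needed for a call. Itgal and Itgav are above 2 in GRO-Seq at 1 hr and below 0 in RNA-Seq at that time, and Itgam is at -1.55 in GRO-Seq.

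Between the strains, Itgax nascent RNA was called, and it was higher in C57BL6/J. It had 451 and 585 GRO-Seq tags per 10 M in C57BL6/J after KLA and without treatment, against 230.4 and 209 in BALBc/J. Both C57BL6/J libraries lay above both BALBc/J libraries, a difference of 1.19 ± 0.30 (adjusted p = 0.0102). In RNA-Seq Itgax differed by 0.60 ± 0.14 (adjusted p = 0.0376) and Itgb2 by 0.54 ± 0.13 (adjusted p = 0.0412), both higher in C57BL6/J at each of the 3 times and both under the size for a call. Itgav differed by 0.61 ± 0.16 in RNA (adjusted p = 0.0624) and by 0.62 ± 0.30 in GRO-Seq (adjusted p = 0.647). In RNA-Seq with limma 0 of the 10 were called, against 1.19% of all genes higher and 2.52% lower in C57BL6/J. At an unadjusted p under 0.05, 4 of the 10 (Itgam, Itgax, Itgav and Itgb2) were higher in C57BL6/J. Over all 10692 genes 2186 had such a p in either direction. In GRO-Seq 1 was higher, against 0.417% of all genes higher and 0.494% lower. With centred libraries, 166 genes were higher and 217 lower in C57BL6/J RNA, against 127 and 269 as fitted, and 87 and 28 in GRO-Seq, against 38 and 45. The BALBc/J libraries had higher sums of mesothelial and fibroblast markers, and the part of these in the strain values was not tested.

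A strain difference of the response has no error in this design. For Itgav the GRO-Seq response was 2.86 in C57BL6/J and 1.45 in BALBc/J on the log2 scale, a difference of 1.41, while the median gene differed by -0.43. A difference of this size or more, in either direction, was seen for 0.384% of 9110 genes. In RNA at 4 hr the Itgav responses were 2.26 and 1.65, a difference of 0.60 that 20.4% of genes reached. Itga4 went the other way at 4 hr, with responses of 1.20 in C57BL6/J and 2.15 in BALBc/J.

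Binding of p65 was measured after KLA only, in 2 libraries per strain. Peak values below are the authors' tags per 10 M for each peak, given where a peak was listed. A p65 locus present in all 4 lists lay within 50 kb of the start of each of the 10 genes, as for 87.4% of all tested genes. Such loci numbered 4 to 16 per gene with a median of 8, and the median over all tested genes was 3. Within 1 kb of the start, 7 of the 10 had one, against 34.8% of all genes. Windows hold other genes too, and starts of other genes lay within 50 kb of Icam1 (5 genes), Sdc4 (4), Itgal (3), Itgax, Itgb2 and Itga5 (1 each).

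The p65 locus with the highest mean tags is given here for each gene, out of the loci that all 4 lists share. At Itga5 it lay 3.87 kb upstream, with 899 and 1057 tags in C57BL6/J and 995 and 880 in BALBc/J, a mean above 99.7% of p65 loci in all 4 lists. At Sdc4 it lay 11.9 kb upstream, with 827 and 1082 in C57BL6/J and 836 and 858 in BALBc/J. The strains overlapped at both loci. Sdc4 also had p65 at its start, centred 90 bp upstream, with 461 and 669.6 tags in C57BL6/J and 481 and 509 in BALBc/J. The NF-kB match printed above for Sdc4 lay near the same distance from its start.

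At Icam1 the strongest p65 locus lay 786 bp downstream of the start, inside the gene, with 483 and 694 tags in C57BL6/J and 529 and 514 in BALBc/J. A weaker one centred 140 bp upstream, near the distance of the printed GGAAATTCC, had 156 and 223.5 tags in C57BL6/J and 142 in 1 BALBc/J list, and was not listed in the other. Another at 3.87 kb upstream had 299.9 and 424 tags in C57BL6/J and 149 and 169 in BALBc/J, so that the strains did not overlap there. Vcam1 had weaker loci, 164 bp downstream of its start with 127 and 163 tags in C57BL6/J and 68 and 69.3 in BALBc/J, and 15.6 kb downstream with 146 and 198 against 116 and 149.9.

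The 3 genes with no increase had p65 loci as well. The strongest for Itgam lay 26.7 kb downstream of its start, which is also 40.2 kb upstream of Itgax, with 467 and 557 tags in C57BL6/J and 506 and 514 in BALBc/J. Itgax had p65 216 bp upstream of its start, with 422 and 368 tags in C57BL6/J and 358 and 284.5 in BALBc/J, and Itgb2 had it 20.7 kb downstream, with 483 and 469.8 against 459 and 317. Itgal had p65 997 bp downstream of its start, with 337.5 and 422 in C57BL6/J and 231 and 229.7 in BALBc/J, where the strains did not overlap. At Itga4 the strongest locus in all 4 lists lay 1.91 kb upstream and varied between libraries, with 305 and 175 in C57BL6/J and 218 and 78.2 in BALBc/J. Each library also had a stronger peak nearer the start that the joining put into separate loci. It lay 279 bp upstream in the first library of C57BL6/J and the second of BALBc/J, with 322 and 245 tags, and 614 bp upstream in the other 2, with 306 and 230.1 tags.

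PU.1, the lineage factor of macrophages, was listed after KLA only, in both strains, at 16 of 173 PU.1 loci near the 10 genes, or 9.25%, against 5.12% of all PU.1 loci. Without treatment only, in both strains, it was 1 locus, against 4.10% of all loci. Of the 16 loci, 6 lay near Icam1, 5 near Sdc4, 2 near Vcam1, 2 near Itgav and 1 near Itga5. Over all tested genes 36.3% had such a PU.1 locus within 50 kb. Icam1 had them 768 bp downstream of its start, with 228 tags in C57BL6/J and 192 in BALBc/J, and 3.73 kb upstream, with 189.7 and 144. The p65 loci named above, 786 bp downstream and 3.87 kb upstream, lay close to these places. At 598 bp upstream of Icam1, PU.1 was listed in all 4, with 358 and 349 tags after KLA and 300.1 and 326 without treatment in C57BL6/J and BALBc/J.

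Near Sdc4, PU.1 was listed after KLA only 74 bp downstream of the start, with 72.6 tags in C57BL6/J and 52.4 in BALBc/J, and 2.87 kb downstream, with 72.6 and 68.3. At Vcam1 it was listed after KLA only 15.5 kb downstream, with 46.2 and 44.4, beside the p65 locus there. None of the 16 loci lay near Itgb2, near its partners Itgal, Itgam and Itgax, or near Itga4. Itgam had PU.1 at its start in all 4 lists, with 85.8 and 82.5 tags after KLA and 98.2 and 108.8 without treatment in C57BL6/J and BALBc/J. Itgb2 had it 20 bp upstream, with 244 and 241 after KLA and 223 and 245 without treatment. Itgav had it 18 bp upstream of its start, where the PU.1 core printed above lies, with 244 and 269.8 after KLA and 260 and 251 without treatment.

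C/EBPa was listed after KLA only, in both strains, at 18 of 139 C/EBPa loci near the 10 genes, or 12.9%, against 8.73% of all C/EBPa loci. It was listed without treatment only at 3, all near Itga5, against 5.25%. Loci after KLA only lay near 8 of the 10 genes, against 40.9% of all tested genes, with 6 near Itgav, 4 near Sdc4 and 3 near Icam1. The strongest lay 23.6 kb upstream of Itgav, with 154 tags in C57BL6/J and 177 in BALBc/J. The strongest p65 locus of Itgav was at the same place, with 603 and 692 in C57BL6/J and 461 and 449 in BALBc/J. The H3K27Ac region there, a mark of active promoters and enhancers, had 638 tags in C57BL6/J and 388 in BALBc/J after KLA, against 34.3 and 67.8 without treatment, or 101 and 72.8 per kb against 40.5 and 26.5.

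At the start sites H3K27Ac went up for Icam1, Vcam1, Sdc4, Itgal and Itga5 and down for Itgam, as nascent RNA did. It also moved at Itgb2 and Itga4, whose change in nascent RNA was not called. Within 1 kb of the start, Sdc4 had a region of 987 tags in C57BL6/J and 950.4 in BALBc/J after KLA, against 154 and 177 without treatment, and the region was 7.54 and 7.97 kb long after KLA against 1.85 and 2.80 kb. Per kb of region this is 131 and 119 after KLA against 83.0 and 63.2. Icam1 had 682 and 628 tags after KLA against 193 and 286 without treatment, or 132 and 157 per kb against 81.8 and 104. At Vcam1 regions of 42.5 and 58.9 tags were listed after KLA and none without treatment. Itgam had 174.5 and 220.3 after KLA against 647 and 522 without treatment, or 42.8 and 34.4 per kb against 93.7 and 70.3. For Itgav tags were higher after KLA, 1576 and 659.6 against 719 and 466, but the tags per kb were not, at 129 and 63.1 against 142 and 109, since the region was longer.

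**Figure D4:**
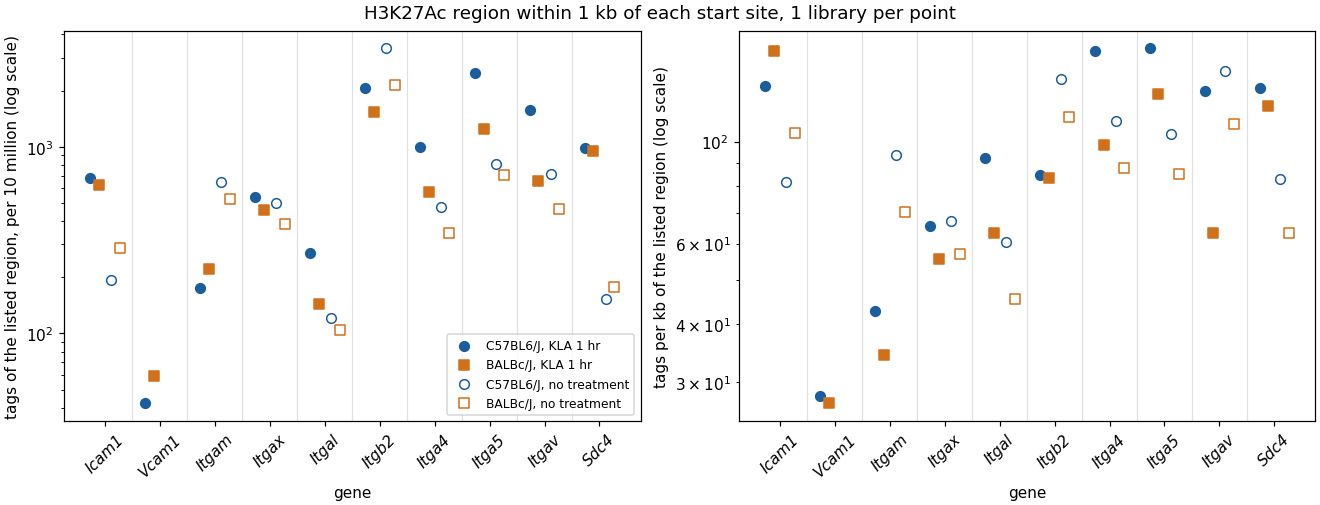
H3K27Ac region within 1 kb of each start site in the 4 lists, as tags per 10 M of the region (left panel, log scale) and as tags per kb of region (right panel, log scale), filled after 1 hr of KLA and open without treatment, circles C57BL6/J and squares BALBc/J. Vcam1 has no region without treatment. Filled symbols lie above open ones for Icam1, Itgal, Itga5 and Sdc4 in both panels and below them for Itgam and Itgb2 in both panels.

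Away from the starts, the H3K27Ac region 13.5 kb upstream of Sdc4 had 874 tags in C57BL6/J and 740.3 in BALBc/J after KLA, against 93.1 and 69.1 without treatment, over its strongest p65 locus. It was 7.35 and 7.49 kb long after KLA against 1.45 and 1.50 kb, so that the tags per kb were 119 and 98.8 against 64.1 and 46.2. At Itgal regions moved in opposite directions. The one 6.13 kb upstream had 484 and 214 tags after KLA against 57.2 and 77.1 without treatment, and the one 24.0 kb upstream had 55.7 and 92.2 against 742 and 582. Per kb these were 114 and 67.9 against 40.3 and 54.7, and 40.4 and 62.6 against 105 and 84.9. Near the 10 genes, 7 of 36 regions in all 4 lists had at least 2-fold more tags after KLA in both strains, against 6.07% of all such regions, and 5 had at least 2-fold more without treatment, against 19.5%. Regions were called in each list alone and differ in length. Per kb of region, 1 of the 36 was at least 2-fold higher after KLA, against 0.522%, and 2 were at least 2-fold higher without treatment, against 5.07%. The 1 is the Itgav region 22.7 kb upstream, and the 2 are the Itgam start and a region 18.5 kb upstream of Icam1. Of all 77 regions 7 were listed after KLA only in both strains, against 6.12%, and 1 without treatment only, against 7.93%.

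Strain differences in binding were counted against a background in which p65 values were lower in BALBc/J. Of 147 p65 loci near the 10 genes 82 were in all 4 lists, or 55.8%, against 46.0% of all p65 loci. In 47 of these 82 both C57BL6/J values lay above both BALBc/J values, against 39.3% of all such loci, and in 0 the reverse, against 5.97%. This held for 7 of 7 loci at Itgal, 13 of 16 at Itgav and 0 of 6 at Sdc4. Listed in both C57BL6/J lists and in no BALBc/J list were 10, against 6.72%, and the reverse 3, against 2.43%. For PU.1 these counts were 1 and 7 of 173, against 2.86% and 3.85%. At least 2-fold more tags in C57BL6/J were seen at 2 of 82 p65 loci, against 1.93%, at 1 of 85 PU.1 loci, against 0.504%, and at 1 of 47 C/EBPa loci, against 0.349%. No p65, PU.1 or C/EBPa locus near the 10 genes had at least 2-fold more in BALBc/J, against 0.709%, 0.797% and 1.29% of all loci in all 4 lists. Of histone regions in all 4 lists, 1 of 36 for H3K27Ac and 1 of 59 for the mark H3K4me2 had 2-fold more in C57BL6/J. The shares over all such regions were 2.40% and 2.27%. The first lay 8.75 kb downstream of Itgax, with 177 tags in C57BL6/J and 71.7 in BALBc/J after KLA, and 248 and 30.6 without treatment. Per kb it had 44.1 and 42.9, and 65.8 and 39.2. The second lay 10.2 kb upstream of Itga5. The reverse was seen at 0 of either, against 1.23% and 2.69%. The input behind the BALBc/J p65 lists was that of C57BL6/J.

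The 4 p65, PU.1 and C/EBPa loci with at least 2-fold more tags in C57BL6/J all lay near Itgav. Of these, 3 shared a place about 5 kb downstream of its start. PU.1 there had 250.7 tags in C57BL6/J and 76.2 in BALBc/J after KLA, and 218.5 and 62.8 without treatment. C/EBPa had 105 and 49.9 after KLA and 124 and 29.8 without treatment. p65 had 272 and 231 in C57BL6/J and 86 and 62.9 in BALBc/J. The 4th was a p65 locus 10.1 kb upstream, with 186 and 204.5 in C57BL6/J and 41 and 48.4 in BALBc/J. PU.1 at the Itgav start and 9.46 kb upstream was alike in the strains, with 183 and 184 tags after KLA at the second of these places. Of 23 PU.1 loci near Itgav, 2 were listed in BALBc/J only and 1 in C57BL6/J only, against 3.85% and 2.86% of all PU.1 loci. For C/EBPa these were 2 and 0 of 22, against 3.92% and 1.92%, and for p65 2 and 1 of 23, against 2.43% and 6.72%. The 4 loci with at least 2-fold more tags were picked out for this difference, so their values are a description with no test.

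**Figure D5:**
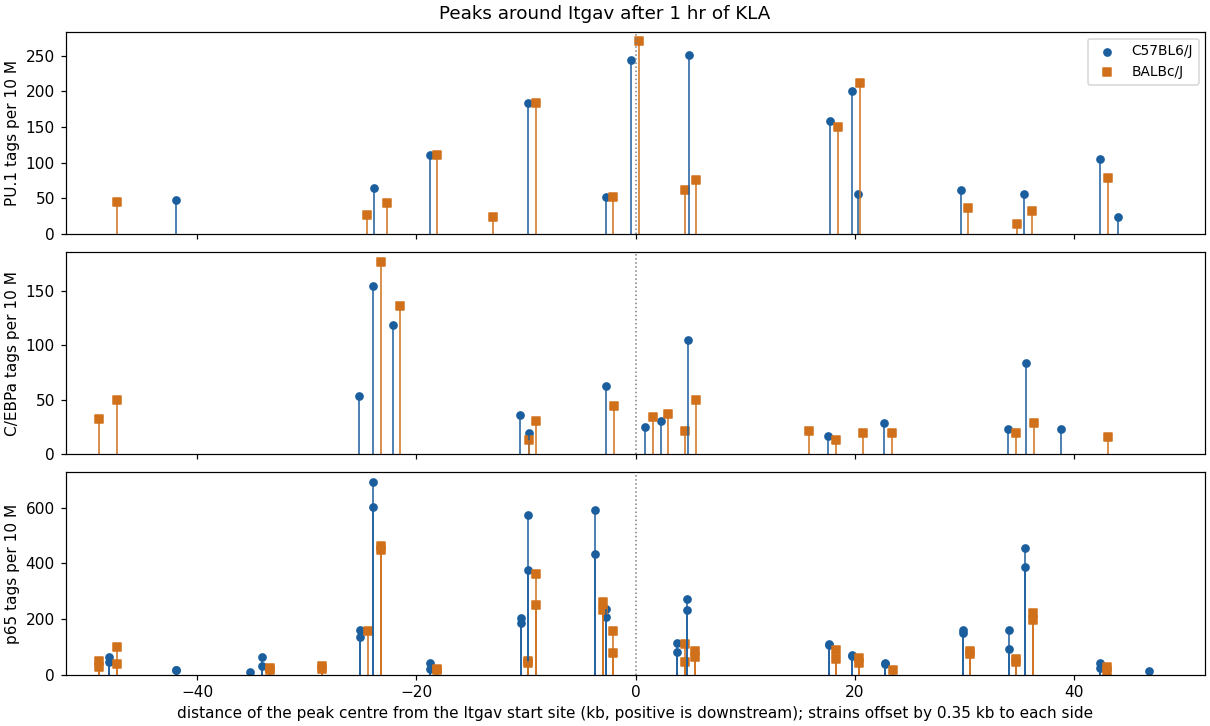
PU.1, C/EBPa and p65 peaks within 50 kb of the Itgav start after 1 hr of KLA, plotted as tags per 10 M against the distance of the peak centre from the start (kb). Circles are C57BL6/J and squares BALBc/J, with 1 library per strain for PU.1 and C/EBPa and 2 for p65. Near 5 kb downstream the circles lie at 250.7, 105, 272 and 231 tags and the squares at 76.2, 49.9, 86 and 62.9. For PU.1 there is only a square 47.7 kb upstream (44.4 tags) and only a circle 41.6 kb upstream (47.8 tags).

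Among other genes of the adhesion machinery, calls were made in both directions. Of 9 other integrin chains tested in RNA at 4 hr, 2 rose, Itgb8 (2.56 ± 0.23, a chain that pairs with alpha V) and Itga1 (1.18 ± 0.23), and 3 fell, Itgb3 (-1.91 ± 0.33), Itga6 (-1.77 ± 0.30) and Itgb5 (-1.58 ± 0.17). With centred libraries 3 rose and 3 fell, and over all 10692 genes 8.10% rose and 21.3% fell as fitted. In GRO-Seq 5 were tested, 0 rose and 2 fell, Itga6 (-1.89 ± 0.33) and Itgb5 (-1.88 ± 0.36). Itgb3 and Itgb5 also encode chains that pair with alpha V. The median change of the list was -0.59 at 4 hr, beside -0.47 for all genes.

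Of 29 genes of integrin activation and focal adhesion tested at 4 hr, 5 rose and 6 fell, and with centred libraries 9 rose and 3 fell. Over all genes the shares were the 8.10% and 21.3% given above, so the number that fell is near the background. Among those that rose were the kinase Src (3.45 ± 0.18) and the focal adhesion protein Zyx (1.61 ± 0.19). The largest decreases were in the focal adhesion protein Tns1 (-4.04 ± 0.22), the Rap1 effector Rassf5 (-2.39 ± 0.18) and Fermt3 (-1.76 ± 0.17), the kindlin of blood cells. In GRO-Seq 2 of 24 rose, Src (2.17 ± 0.35) and Pxn (1.13 ± 0.32), and 2 fell, Tns1 (-2.28 ± 0.31) and Ptk2b (-1.03 ± 0.33), or 5 and 1 with centred libraries, where Ptk2b was not called. Over all genes in GRO-Seq 4.31% rose and 15.5% fell as fitted. The list median was -0.38 at 4 hr and -0.07 in GRO-Seq.

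Of 12 other adhesion receptors tested at 4 hr, 5 rose and 0 fell, with the same counts in centred libraries, against 8.10% of all genes higher and 21.3% lower. Among them were the hyaluronan receptor Cd44 (2.33 ± 0.15) and the junction protein F11r (1.11 ± 0.36). In GRO-Seq, where 4.31% of all genes rose and 15.5% fell, 3 of 8 rose and 0 fell, namely Icam4 (3.25 ± 0.36), Cd44 (2.60 ± 0.26) and Icam5 (1.36 ± 0.21), and Icam4 and Icam5 are neighbours of Icam1. Of 5 other syndecans and glypicans 0 rose and 0 fell at 4 hr, and 1 rose with centred libraries. Of 14 matrix ligands 0 rose and 2 fell, Cyr61 (-1.49 ± 0.20) and Ctgf (-1.22 ± 0.23), and Ctgf was not called with centred libraries. These lists of 5 and 14 genes stand beside the same 8.10% and 21.3% of all genes. In GRO-Seq 9 matrix ligands were tested, 0 rose and 1 fell, Mfge8 (-1.15 ± 0.35), a ligand of alpha V integrins. Over all genes 4.31% rose and 15.5% fell. With centred libraries 3 of the 9 rose and 0 fell, and the median of the 9 as fitted was 0.28. The medians of these 3 lists at 4 hr were -0.04, -0.46 and -0.18.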

How the data were processed

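The samples are macrophages of C57BL6/J and BALBc/J mice, and other samples of the series (input libraries, F1 hybrids, NOD/ShiLtJ) are not analysed here. Per the labels, the authors aligned reads with Bowtie 0.12.7 and used HOMER on build mm9, according to the submitters' processing notes. The authors' deposited expression table holds, per the file headers, log2 values of exon tags in RNA-Seq and GRO-Seq, scaled to 10 M tags of the library, where M is mega. The values show 1 added before the logarithm and a random part below 1 tag per value. They were turned back to tags per 10 M here. The deposited peak lists hold a signal, tags in the peak per 10 M, and per the file headers were called in each library alone with an input as background. For the p65 lists of BALBc/J that input came from C57BL6/J, and the labelled p65 replicates 1 and 2 carry other replicate numbers in the file headers. Cells for PU.1 and C/EBPa were fixed with formaldehyde, and those for p65 and histones also with disuccinimidyl glutarate, per the labels' protocols.

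For each gene the transcript with the highest RNA-Seq mean was used. Values were tested as log2(tags per 10 M + 10) with limma 3.58.1 in R 4.3.3, over genes with at least 20 tags per 10 M in 2 or more libraries (10692 in RNA-Seq, 9110 in GRO-Seq), with strain and treatment as terms and Benjamini-Hochberg adjustment over all genes. RNA-Seq left 2 residual degrees of freedom and GRO-Seq 1, and in GRO-Seq the spread was pooled fully over genes. With 1 library per strain and treatment, the residual is the departure from equal responses in both strains. The labels do not say that libraries came from separate animals, so p-values measure only how these libraries vary, possibly for technical reasons. Calls needed an adjusted p under 0.05 together with a log2 change of 1 or more. Fold changes are on the log2(value + 10) scale, which understates those of low genes.

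Peaks of a factor lying within 100 bp of each other were joined into a locus, and loci within 50 kb of a start were assigned to the gene. The authors' value of a peak is used to describe it only, and no test was made on peaks. All 10 genes passed the filter in both assays. In GRO-Seq Vcam1 passed only through the libraries after KLA, and Itgal would not have passed on the untreated libraries alone. The genes, lists and named loci were chosen with earlier results of these data known, and 3 genes (Vcam1, Itgal, Itgb2) had no promoter sequence in the table used. Genes outside the 10 were named as the largest called changes of each list, up to 3 in each direction, and some that this rule names are not reported here. The fit was tested on simulated data. Alternatives were other pseudocounts (2 and 50), no filter or one of 100, centred libraries, another transcript, other windows and joins, H3K27Ac tags per kb of region, and each library left out.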

Additional observations from a re-analysis of the deposited data

Results flagged for a closer look

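The GRO-Seq response of Itgax was the only 1 of the 10 whose sign differed between the strains. It was -0.37 in C57BL6/J, where Itgax had 451 tags per 10 M after KLA and 585 without treatment, and 0.14 in BALBc/J, with 230.4 and 209. The difference of -0.51 between the responses was not tested, since each strain had 1 library per treatment. It was close to that of the median gene, -0.43, and 41.9% of 9110 genes differed by at least as much in either direction.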

How the results depend on the processing

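Over the 60 values of the 10 genes in the 6 comparisons, 582 of 598 alternatives left direction and call as they were, 13 turned the sign of a value that was not called, and 3 moved a call. The counts of the 10 genes called stayed within 1.5 times under each alternative run. Centring the libraries on their median gave 0.23 for Itgax in GRO-Seq, 0.046 for Itgax in RNA at 4 hr, and 1.03, a call, for Itga4 in GRO-Seq. With a pseudocount of 2, the GRO-Seq strain difference of Vcam1 was -0.055. With 1 RNA library left out, the strain difference ranged over -0.27 to 0.52 for Itga4 and -0.21 to 0.17 for Sdc4, the 1 hr change of Itga4 over -1.10 to 0.010, and the change between 1 and 4 hr over -0.32 to 0.49 for Itgam, -0.13 to 0.22 for Itgax and -0.083 to 0.22 for Itgb2. The 1 hr change of Itga5 was 1.07, not called, without the untreated BALBc/J library. The cause was not tested. Leaving out a GRO-Seq library leaves no residual and was not run. No paired analysis was possible because expression columns carry no replicate numbers, and p65 lists give no test.

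Counts over all genes moved more. Genes lower at 1 hr in RNA numbered 153, and 39 with a pseudocount of 50, 66 without the filter, 76 with a filter of 100 tags, 78 when centred, and 78 to 576 with 1 library left out. At 4 hr 2275 were lower, 1280 with a pseudocount of 50 and 1041 when centred, and between 1 and 4 hr 1446, 817 and 962. In the strain comparison in RNA, 127 were higher, 59 with a pseudocount of 50 and 72 with a filter of 100, and 269 were lower, 409 with a pseudocount of 2, 111 with 50 and 145 with a filter of 100. In GRO-Seq after KLA, 393 were higher, 221 with a pseudocount of 50, 258 with a filter of 100 and 618 when centred, and 1410 were lower, 330 with a pseudocount of 50, 468 with a filter of 100 and 645 when centred. In the GRO-Seq strain comparison, 38 were higher, 17 with a pseudocount of 50, 15 with a filter of 100 and 87 when centred, and 45 were lower, 9 with a pseudocount of 50, 85 without a filter, 11 with a filter of 100 and 28 when centred.

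Among peaks, p65 loci near the 10 genes in all 4 lists were 55.8%, and 76.5% within 10 kb. Those in C57BL6/J only were 6.80%, and 21.8% or 16.3% without replicate 1 or 2, beside 6.72%, 23.5% and 16.0% of all p65 loci, settings chosen after seeing the data. Those in BALBc/J only were 2.04%, and 0% within 10 kb, and 3.40% or 9.52% without replicate 1 or 2, beside 2.43%, 7.43% and 11.6% of all p65 loci. Within 10 kb, 0% of PU.1 loci were listed without treatment only or in C57BL6/J only, against 0.578% each, and 0% of H3K27Ac loci without treatment only, against 1.30%. H3K27Ac regions at least 2-fold higher after KLA were 19.4% by tags and 2.78% by tags per kb, a setting added after seeing the data.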
